A study of Mus musculus with 6 samples.

Results

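A set of 59 genes of the cell cycle and of DNA replication was examined in mouse melanoma cells of the line 4434, whose Braf gene is mutated, on day 20 of a partial reprogramming. The genes were taken by symbol, and a gene counted as measured where the array held a probe set annotated to that 1 symbol. By this rule 58 of the 59 genes were measured, with 136 probe sets, among 18193 genes on the array. Ccnb1, a mitotic cyclin, had no such probe set. Each gene is given by the brightest of its probe sets on average, as a log2 value on which a difference of 1 is a 2-fold difference. Values of different genes come from different probe sets and were not set against each other.

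Both groups carried a lentiviral vector, inducible by doxycycline, for Oct4, Sox2, Klf4 and blasticidin resistance, together with a vector for the M2 transactivator and mCherry. The + dox cells were kept in reprogramming medium with doxycycline and, by the methods, were selected with blasticidin from an early day. The − dox cells held the same vectors and were grown without doxycycline. Whether the − dox cells were selected too is not stated. The contrast therefore joins doxycycline and the 3 factors, and possibly selection. It asks what partial reprogramming changed in genes that run proliferation, a property the study also followed by EdU incorporation. Total RNA of 3 + dox and 3 − dox samples was hybridised to 6 arrays. Whether the samples of a group were cultured apart is stated neither in the labels nor in the methods, and the p-values therefore speak only of the spread among these samples, possibly a technical one. The number of arrays limits the precision.

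A dividing cell commits to a new cycle in G1, when D-type cyclins with Cdk4 or Cdk6 and E-type cyclins with Cdk2 phosphorylate the retinoblastoma protein and release E2F transcription factors. Origins are licensed by Cdc6, Cdt1 and the Mcm helicase, replication follows with polymerases, the sliding clamp and nucleotide supply, and mitosis is driven by Cdk1 with cyclins A and B, the Polo and Aurora kinases and the spindle machinery. Transcription of the licensing and replication genes is known to depend on E2F sites, and that of many mitotic genes on a CCAAT box together with the cell cycle genes homology region (CHR).

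The promoters of the genes carry these letters to unlike extents by phase. RefSeq sequences from 250 bases before to 50 after the transcription start (assembly GRCm38.p6) were found for 47 of the 59 genes. They were searched on both strands for E2F letters (TTCCCGC or TTCGCGC or TTGCCGC or TTGGCGC, which can overlap each other), for CHR letters (TTTGAA or TTCGAA) and for CCAAT, and a gene counted where any of its listed starts held the letters. E2F letters stood in 6 of 7 licensing promoters (85.7%) and in 4 of 7 replication promoters (57.1%), against 10.9% of the promoters of all 27025 genes with an entry and 16% of those of the measured genes. None of the 14 spindle and checkpoint promoters held them. CHR letters stood in 7 of 8 mitotic entry promoters (87.5%) and in 10 of 14 spindle and checkpoint promoters (71.4%), against 21.7% of all and 17.5% of measured genes. A CCAAT box together with a CHR stood in 16 of the 22 mitotic promoters (72.7%), against 8.61% of all genes. A match is a description of letters and not of a bound site. The 3 licensing promoters below are each the 180 bases up to the transcription start. They are written 5′ to 3′ along the gene with matched letters of either strand in capitals. Cdc6, Mcm5 and Mcm6 were 8-fold, 4.99-fold and 2.39-fold lower in − dox 1 than in the mean of − dox 2 and 3. The median over the licensing genes was 3.27-fold, so Mcm6 lay on the smaller side.
Cdc6 (chr11:98907971-98908150, plus strand): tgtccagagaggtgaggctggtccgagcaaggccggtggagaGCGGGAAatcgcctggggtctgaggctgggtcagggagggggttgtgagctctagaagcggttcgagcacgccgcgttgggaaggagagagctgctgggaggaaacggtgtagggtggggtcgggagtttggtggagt
Mcm5 (chr8:75109329-75109508, plus strand): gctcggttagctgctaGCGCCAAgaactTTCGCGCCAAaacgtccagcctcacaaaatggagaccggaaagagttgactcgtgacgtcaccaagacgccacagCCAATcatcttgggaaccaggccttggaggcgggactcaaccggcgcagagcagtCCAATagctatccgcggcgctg
Mcm6 (chr1:128359706-128359885, minus strand): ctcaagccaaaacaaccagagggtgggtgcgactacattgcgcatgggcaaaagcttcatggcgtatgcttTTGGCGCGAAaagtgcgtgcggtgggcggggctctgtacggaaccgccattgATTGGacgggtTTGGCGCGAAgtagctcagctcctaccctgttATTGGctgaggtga

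The next 3 promoters, shown in the same way, belong to Cdk1, the mitotic kinase, to Cdc20, the activator of the anaphase-promoting complex, and to Kif11, the motor that pushes spindle poles apart. Cdk1 held E2F, CCAAT and CHR letters together, whereas Cdc20 and Kif11 held CCAAT and CHR letters only in the stretch shown.
Cdk1 (chr10:69352913-69353092, minus strand): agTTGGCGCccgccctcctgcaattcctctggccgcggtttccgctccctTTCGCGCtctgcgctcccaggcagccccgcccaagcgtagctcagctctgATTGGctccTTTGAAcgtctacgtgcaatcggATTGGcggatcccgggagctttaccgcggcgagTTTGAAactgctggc
Cdc20 (chr4:118437344-118437523, minus strand): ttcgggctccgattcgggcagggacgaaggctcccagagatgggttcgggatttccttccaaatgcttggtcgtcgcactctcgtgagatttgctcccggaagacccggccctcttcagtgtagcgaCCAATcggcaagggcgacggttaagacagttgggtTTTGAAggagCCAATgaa
Kif11 (chr19:37376202-37376381, plus strand): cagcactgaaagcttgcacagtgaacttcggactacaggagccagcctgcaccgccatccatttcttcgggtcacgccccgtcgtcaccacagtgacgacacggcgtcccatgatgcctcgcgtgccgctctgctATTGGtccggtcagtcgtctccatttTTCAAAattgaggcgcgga

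The promoter of Ccne1, cyclin E1, is shown because this gene had the largest positive change of the set, and the 180 bases before its start held none of the searched letters.
Ccne1 (chr7:38107491-38107670, minus strand): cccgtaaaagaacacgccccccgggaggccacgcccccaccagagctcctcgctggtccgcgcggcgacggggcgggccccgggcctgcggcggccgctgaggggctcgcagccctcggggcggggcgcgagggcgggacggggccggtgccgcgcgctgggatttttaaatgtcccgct

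**Figure D1:**
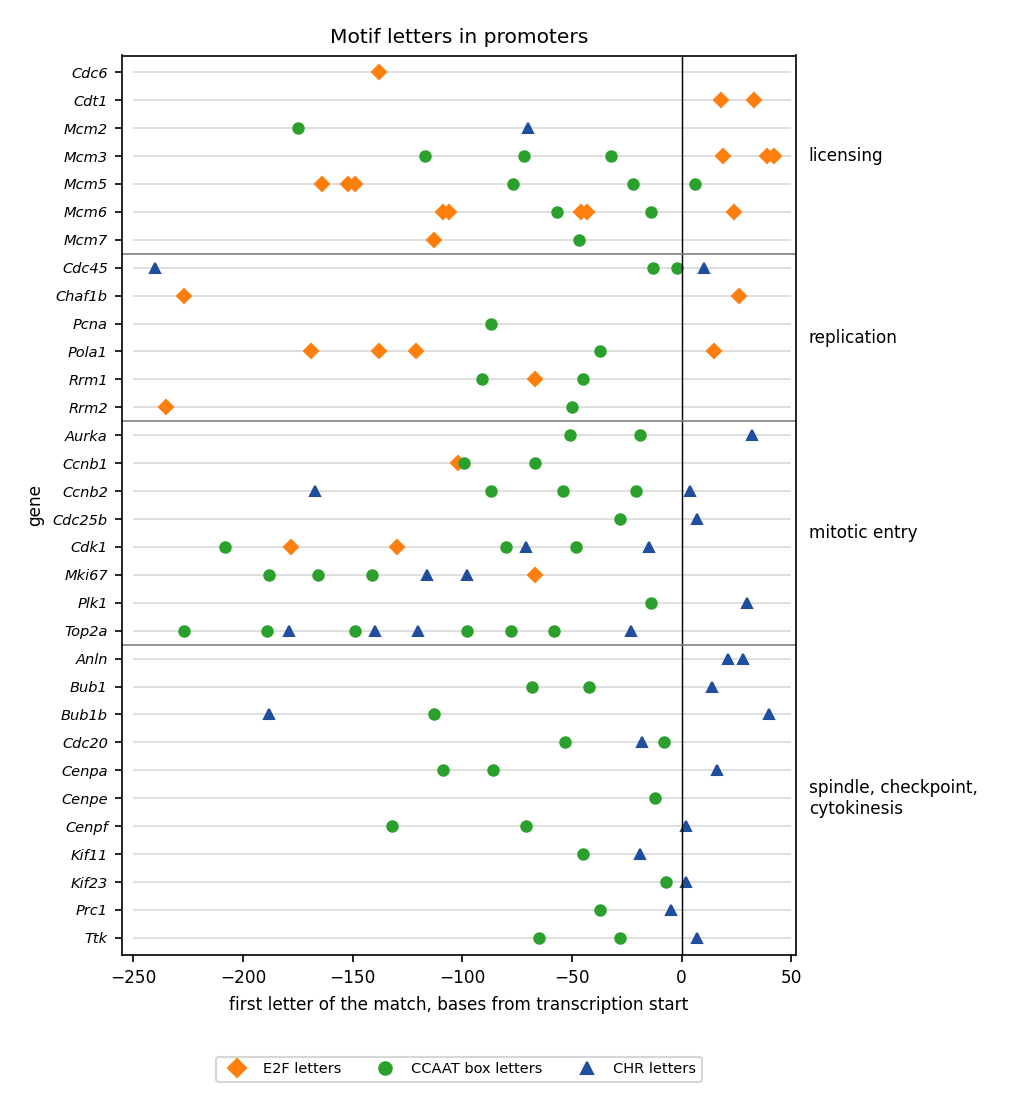
Position of motif letters in the promoters of licensing, replication and mitotic genes with at least 1 match; the horizontal axis gives the first letter of each match in bases from the transcription start, and each row is 1 gene, drawn for its start of lowest coordinate where several are listed. E2F letters (orange diamonds) lie mainly in the licensing and replication rows and are in 0 of 14 spindle and checkpoint promoters, where CHR letters (blue triangles) are in 10 of 14.

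All 6 arrays had similar distributions, with medians between 5.33 and 5.37. In the fit over all genes 887 of 18193 passed an adjusted p of 0.05, 559 of them higher and 328 lower in + dox. Pou5f1, which the vector encodes as Oct4, read between 4.77 and 5.32 in + dox and between 4.13 and 4.42 in − dox (log2 change 0.75, adjusted p = 0.0566 by limma). Sox2, also encoded by the vector, went the other way (log2 change -0.71, adjusted p = 0.113 by limma). Endogenous and vector transcripts of the 3 factors were not distinguished here. Of 11 melanocyte markers, Tyr and Mlana read below 3.84, the lowest of the arrays' lower quartiles, in every array. Tyr and Mlana were thus at a low level in both groups. Mitf and Gpnmb, of the same list, were kept when the dimmest 40% of genes were left out. The low level of Tyr and Mlana therefore does not stand for every gene of the list. Still, the median level of the 11 markers lay between 4.51 and 4.62 by array, beside 6.58 to 6.65 over all genes.

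The members' medians differed more between arrays of the same label than between labels. The library labelled − dox 1 had low values of the licensing, replication and mitotic genes, and − dox 2 and − dox 3 read nearly alike. The median over the 58 genes, each taken relative to its own mean over the 6 arrays, was 0.34 in + dox 1, -0.32 in + dox 2 and 0.10 in + dox 3, against -0.71 in − dox 1, 0.41 in − dox 2 and 0.39 in − dox 3. The same median over all 18193 genes stayed between -0.03 and 0.02 in every array. The processing equalises the arrays' quantiles, so that a median near 0 over all genes was largely set by it. In − dox 1 the licensing genes stood at -1.17 and the replication genes at -1.19, whereas the G1, mitotic entry and spindle genes stood at -0.53, -0.61 and -0.61. Thus − dox 1 was lowest in every phase, and the distance was widest for the S-phase genes. In + dox 2 the order was the other way round, with -0.46 for mitotic entry and -0.43 for spindle genes and -0.21 and -0.22 for licensing and replication.

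**Figure D2:**
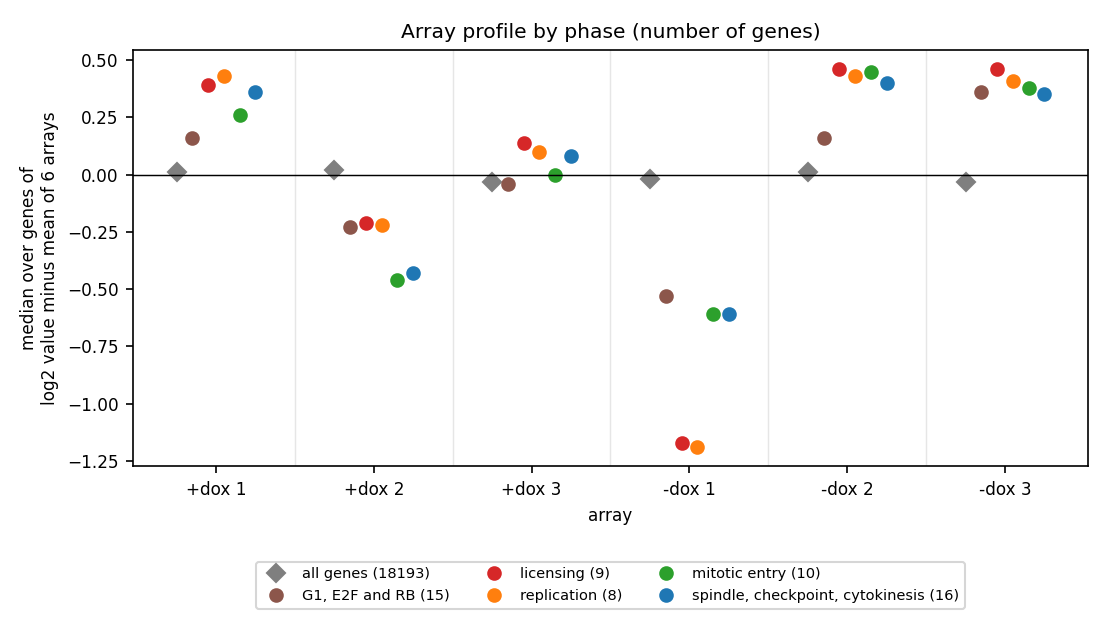
Median log2 value of each phase relative to the mean of the 6 arrays (vertical axis), by array (horizontal axis); circles are phases with their number of measured genes and grey diamonds are all 18193 genes. In − dox 1 licensing and replication lie at -1.17 and -1.19, while all genes lie at -0.02.

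Set against the mean of − dox 2 and − dox 3, − dox 1 was lower by a median of 1.12 on the log2 scale over the members, that is 2.17-fold lower. The median over all genes was 0.00, a value that the equalised quantiles largely set. These are differences of 1 array from 2 others and were not tested. A difference of over 2-fold downward was found in 34 of 58 members, where 2.14% of all genes passed this limit, and in 0 of 58 upward, where 2.94% passed. By phase it was found in 8 of 9 licensing, 7 of 8 replication, 5 of 10 mitotic entry, 8 of 16 spindle and 6 of 15 G1 genes. The median differences were -1.71 for licensing and -1.61 for replication (3.27-fold and 3.05-fold lower), -0.99 for mitotic entry, -1.01 for spindle and -0.77 for G1 genes. In 54 of 58 members − dox 1 read below both other − dox arrays (38.9% of all genes did), and in 42 it was the lowest of the 6 arrays (24% of all genes). The other − dox arrays differed from each other by a median of 0.10 over the members. Of the 136 probe sets, 116 were lower in − dox 1 than in the mean of the other − dox arrays, and 7 of the 45 genes with several probe sets held a probe set of opposite sign.

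The + dox arrays had an order too. The lowest of the 3 values lay in + dox 2 for 52 of 58 members (26.5% of all genes), and the highest lay in + dox 1 for 46 of 58 (39.7% of all genes). A lower share of dividing cells and less of these transcripts per cell cannot be told apart in bulk RNA. Degradation was read from the 3′ minus 5′ difference of the array's control probe sets, which lay between -0.14 and 0.00 for Gapdh and between 0.03 and 0.12 for Actb. For − dox 1 these differences were -0.14 and 0.10, the lowest for Gapdh and below − dox 3 for Actb. The part of RNA quality in the array profile was not tested.

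**Figure D3:**
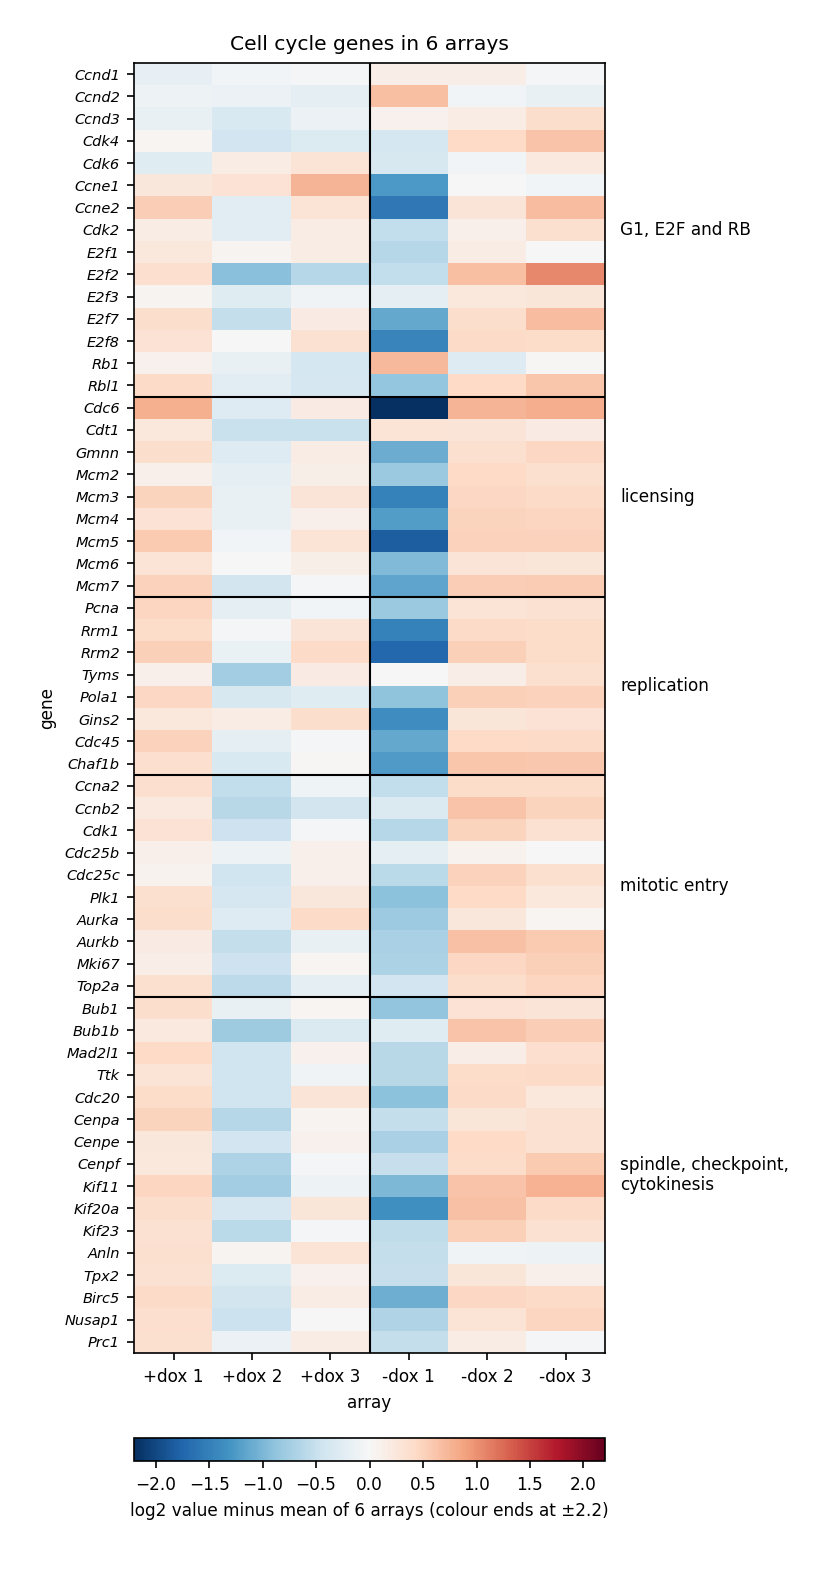
Log2 value of each of the 58 measured genes (rows, grouped by phase) in each of the 6 arrays (columns), relative to the gene's mean over the 6 arrays; blue is lower and red is higher. The column of − dox 1 is blue in most rows, with Ccnd2, Rb1 and Cdt1 among the exceptions, and + dox 2 is paler blue.

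Licensing genes gave the widest distance of any phase between the − dox arrays. Cdc6, the ATPase that loads the Mcm helicase onto origins, read 10.02, 8.95 and 9.42 in + dox and 7.01, 9.98 and 10.04 in − dox, here and below in the order of the array numbers. It was 8-fold lower in − dox 1 than in the mean of the other − dox arrays, the 4th largest downward difference of all genes, and its values in + dox lay inside the range of − dox. Mcm5, a subunit of the replicative helicase, read 12.12, 11.49 and 11.85 in + dox and 9.73, 12.05 and 12.05 in − dox. Mcm3, of the same ring, read 11.26, 10.60 and 11.05 in + dox and 9.28, 11.23 and 11.18 in − dox. Both were lowest in − dox 1, 4.99-fold for Mcm5 and 3.80-fold for Mcm3 below the other − dox arrays, and in both + dox 2 was the lowest of its group. All 6 Mcm genes measured (Mcm2 to Mcm7) and Gmnn, which encodes the Cdt1 inhibitor geminin, were 2.31-fold (Mcm2) to 4.99-fold (Mcm5) lower in − dox 1. The E2F letters before the start of Cdc6, Mcm5 and Mcm6 are those printed above, and Mcm6 held a further match after it, at base 24.

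Cdt1, the other helicase loader and the partner of Cdc6, did not follow. It read 12.15, 11.43 and 11.44 in + dox and 12.22, 12.20 and 12.11 in − dox, so that − dox 1 was level with its group (difference 0.07). Its + dox arrays 2 and 3 were the low ones, while + dox 1 lay among the − dox arrays. The change of -0.50 ± 0.20 (SE) had an adjusted p of 0.220 by limma. Its E2F letters lay after the transcription start, at bases 18 and 33, and of its further probe sets a bright one changed by -0.65 (probe set adjusted p = 0.172 by limma) and a dim one by 0.11.

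Replication genes showed the same profile. Rrm2, the regulated subunit of ribonucleotide reductase, read 12.25, 11.57 and 12.15 in + dox and 9.99, 12.24 and 12.13 in − dox. Rrm1, its catalytic partner, read 11.78, 11.34 and 11.67 in + dox and 9.90, 11.80 and 11.78 in − dox. Both reductase subunits were thus lowest in − dox 1, by 4.58-fold and 3.71-fold. Gins2, a part of the active helicase, read 9.59, 9.52 and 9.74 in + dox and 7.99, 9.62 and 9.68 in − dox, and apart from − dox 1 its values lay between 9.52 and 9.74. Pcna, the sliding clamp, read 13.09, 12.40 and 12.57 in + dox and 11.80, 12.92 and 12.96 in − dox. Pola1 (the priming polymerase), Cdc45 (of the active helicase) and Chaf1b (of the histone chaperone CAF-1) were 2.63-fold to 3.62-fold lower in − dox 1. Tyms, thymidylate synthase, was only 1.20-fold lower there, at 5.10, 4.22 and 5.17 in + dox and 4.98, 5.14 and 5.35 in − dox. Its values lay below the median of the arrays, and another probe set annotated to Tyms and a pseudogene together was left out by the rule. The small difference rested on the probe set used, since a further dim one read 3.33 in − dox 1 against 4.98 and 5.18 in the other − dox arrays.

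Among the G1 genes are the E-type cyclins, which drive entry into S phase, and the D-type cyclins, which respond to growth signals. Ccne1 read 8.23, 8.29 and 8.73 in + dox and 6.71, 7.99 and 7.91 in − dox. All 3 + dox values were above all 3 − dox values, and − dox 1 was the lowest. In its other probe set the groups overlapped, at 7.64, 7.38 and 8.01 in + dox and 6.39, 7.37 and 7.46 in − dox. Its relative Ccne2 read 9.18, 8.41 and 8.95 in + dox and 7.07, 8.93 and 9.33 in − dox, with overlapping groups. Ccnd3, cyclin D3, read 9.79, 9.62 and 9.82 in + dox and 10.05, 10.11 and 10.34 in − dox, with all + dox values below all − dox values. A further, dimmer probe set of Ccnd3 went the other way, by 0.24. Ccnd1, cyclin D1, read 12.87, 13.00 and 13.01 in + dox and 13.20, 13.20 and 13.03 in − dox. Its groups touched without overlap, at 13.01 and 13.03, and − dox 1 was level with its group. Ccnd2, cyclin D2, was 12.06 in − dox 1 and between 11.20 and 11.34 in the other 5 arrays, and all 7 of its probe sets were higher in − dox 1, by 0.67 to 0.94. Rb1, which encodes the retinoblastoma protein, read 9.96 in − dox 1 and between 8.87 and 9.34 elsewhere. Cyclin D2 and Rb1 were therefore high in the array where the S-phase genes were low.

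Cdk4, the kinase of the D-type cyclins, read 10.48, 10.02 and 10.14 in + dox and 10.06, 10.87 and 11.07 in − dox. E2f2, an activating E2F, read 7.71, 6.42 and 6.72 in + dox and 6.79, 8.0 and 8.40 in − dox. In both genes − dox 1 lay with + dox 2 and 3, and + dox 1 lay between them and the other − dox arrays. E2f7 and E2f8, repressors that E2F itself induces, were 3.14-fold and 3.66-fold lower in − dox 1, whereas E2f1 was 1.62-fold and E2f3 1.39-fold lower. Cdk2, the partner of cyclin E, and Rbl1, the pocket protein p107, were 1.71-fold and 2.58-fold lower there. Cdk6, the other kinase of the D-type cyclins, read 11.22, 11.66 and 11.79 in + dox and 11.14, 11.42 and 11.70 in − dox, with the lowest value of each group in array 1.

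**Figure D4:**
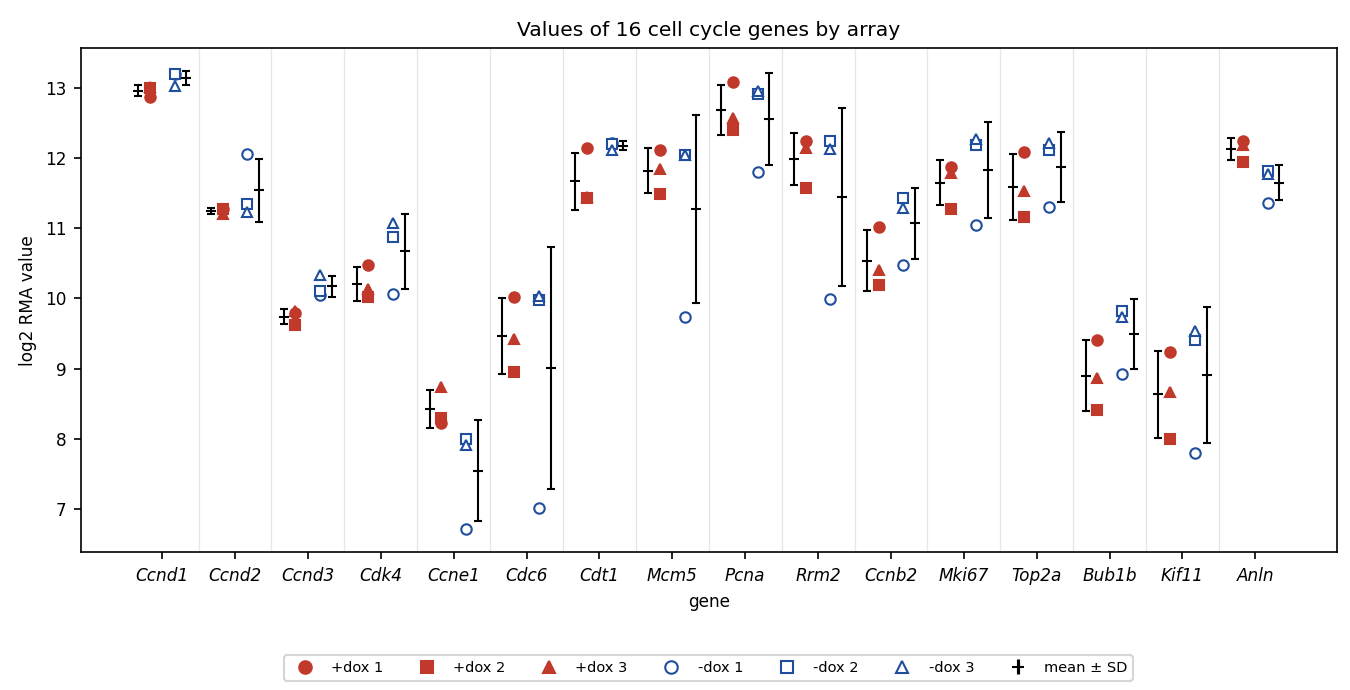
Log2 values of 16 of the genes in each array: filled red symbols stand for + dox and open blue ones for − dox, and the bars beside each group give its mean and SD over 3 arrays. For Mcm5, Cdc6 and Rrm2 the open circle of − dox 1 lies at 9.73, 7.01 and 9.99, far below the other − dox arrays, whereas for Cdt1 the 3 − dox symbols coincide.

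The mitotic entry genes were low in − dox 1 and in + dox 2. Ccnb2, cyclin B2, read 11.02, 10.19 and 10.40 in + dox and 10.48, 11.43 and 11.29 in − dox. Top2a, topoisomerase II alpha, read 12.09, 11.16 and 11.53 in + dox and 11.31, 12.12 and 12.21 in − dox, and its lowest value lay in + dox 2. Aurkb, the kinase of the chromosomal passenger complex, read 10.29, 9.58 and 9.94 in + dox and 9.40, 10.76 and 10.69 in − dox. In these 3 genes all + dox values lay below − dox 2 and 3, and − dox 1 lay in the + dox range or below it. Aurka, the centrosomal Aurora kinase, behaved otherwise, at 10.56, 9.89 and 10.59 in + dox and 9.37, 10.42 and 10.22 in − dox. Cdk1 was 2.06-fold lower in − dox 1, and Mki67, the gene of the proliferation antigen Ki-67, was 2.28-fold lower. Ccna2 (cyclin A2), Plk1 (Polo-like kinase) and Cdc25c (a phosphatase that activates Cdk1) were 1.93-fold, 2.37-fold and 2.03-fold lower there, and Cdc25b, a phosphatase of the same family, only 1.20-fold.

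Spindle, checkpoint and cytokinesis genes repeated this picture, and all 16 were below both other − dox arrays in − dox 1. Bub1b, the checkpoint kinase BubR1, read 9.41, 8.41 and 8.87 in + dox and 8.92, 9.82 and 9.73 in − dox. Kif11 read 9.24, 8.0 and 8.66 in + dox and 7.79, 9.40 and 9.53 in − dox. Cenpf, a kinetochore protein, read 10.31, 9.40 and 10.06 in + dox and 9.57, 10.48 and 10.66 in − dox. In each of the 3, the + dox values and − dox 1 lay below − dox 2 and 3. Anln, the cytokinetic ring scaffold anillin, was different: it read 12.25, 11.95 and 12.19 in + dox and 11.36, 11.82 and 11.78 in − dox, with all + dox values above all − dox values. Its further probe set gave the same direction (0.60). The kinases Bub1 and Ttk, the checkpoint protein gene Mad2l1, Cdc20, the centromere genes Cenpa and Cenpe, the motors Kif20a and Kif23, and Tpx2, Birc5, Nusap1 and Prc1, which act on spindle microtubules or in the passenger complex, were 1.51-fold (Prc1) to 3.66-fold (Kif20a) lower in − dox 1.

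With all 6 arrays, no member passed the test of + dox against − dox. In the fit by limma 0 of 58 reached an adjusted p of 0.05, where 4.88% of all genes passed, 3.07% higher and 1.8% lower. At an unadjusted p below 0.05 there were 4 members (21.7% of all genes), with Ccne1 and Anln higher and Ccnd3 and Cdt1 lower in + dox. No probe set of the 136 passed either. The groups did not overlap in Ccne1 and Anln, higher in + dox, and in Ccnd1 and Ccnd3, lower in + dox, which is 4 of 58 where 26.9% of all genes did not overlap (14.3% higher and 12.6% lower). The share of members in each of these counts of genes was below that of all genes.

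The members' median change was 0.04, beside 0.01 over all genes, with 32 above 0 and 26 below. By phase the median was -0.12 for G1, 0.18 for licensing, 0.15 for replication, -0.17 for mitotic entry and 0.01 for spindle genes. Ccne1 averaged 8.42 ± 0.27 in + dox and 7.54 ± 0.72 in − dox (SD, n = 3 each), a change of 0.88 with a 95% interval from 0.03 to 1.73 and an adjusted p of 0.216 by limma. Anln averaged 12.13 ± 0.16 and 11.65 ± 0.25 (change 0.48 ± 0.16 SE, adjusted p = 0.142 by limma). Ccnd3 averaged 9.74 ± 0.11 and 10.17 ± 0.15 (change -0.42 ± 0.12 SE, adjusted p = 0.0959 by limma), the lowest adjusted p of the set. With the mean of its probe sets the change of Ccnd3 was -0.05 (adjusted p = 0.791 by limma). Bub1b changed by -0.59 ± 0.33 (SE, adjusted p = 0.366 by limma) and E2f2, the largest fall in the estimates, by -0.78 ± 0.49. Where − dox 1 was lowest the − dox spread was wide, so that these data do not show the absence of a change. Mcm5 averaged 11.82 ± 0.32 in + dox and 11.28 ± 1.34 in − dox, and its 95% interval ran from -0.96 to 2.04.

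The direction of the comparison turned on − dox 1. Without it the median change of the members was -0.36, beside 0.01 over all genes, and 53 of 58 estimates were below 0. The sign changed in 27 members, among them Mcm5 (from 0.54 to -0.23), Cdc6 (from 0.45 to -0.55) and Rrm2 (from 0.54 to -0.20). No member passed the adjusted test by limma, where 3.94% of all genes were called higher and 2.33% lower. At an unadjusted p below 0.05 there were 14 lower members (11.7% of all genes) and 2 higher ones (12.4% of all genes), the latter being Ccne1 at 0.47 ± 0.17 (SE) and Anln at 0.33 ± 0.13. The lowest adjusted p was that of Cdk4, 0.0516 by limma, with a change of -0.76 ± 0.16. Every phase median was then negative, from -0.22 for G1 to -0.50 for mitotic entry. Without + dox 1, whose members ran high, the median was -0.14 and 1 member passed, where 5.24% of all genes were called higher and 3.83% lower. This was Cdt1, with a change of -0.74 and an adjusted p of 0.0123 by limma. Both − dox 1 and + dox 1 were singled out here for their values in these same genes. Leaving out an array where they are low or high moves the estimates by construction. The counts, signs and p-values of these settings are therefore not independent evidence.

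Without both arrays numbered 1, the remaining 2 + dox arrays lay below the remaining 2 − dox arrays in 54 of 58 estimates, with a median of -0.51. By limma 23 members were called lower (9.79% of all genes) and 0 higher (10.3%). These were 4 G1, 4 licensing, 4 replication, 6 mitotic entry and 5 spindle genes. The largest change was that of E2f2 (-1.63, adjusted p = 0.00181), and the mitotic genes Ccnb2 (-1.06, adjusted p = 0.00275), Bub1b (-1.14, adjusted p = 0.00592) and Kif11 (-1.14, adjusted p = 0.0143) were among them. Of the licensing loaders, Cdt1 (-0.72, adjusted p = 0.00644) and Cdc6 (-0.82, adjusted p = 0.0188) were called. Ccne1 kept its positive estimate (0.56, adjusted p = 0.0601) and so did Anln (0.27, adjusted p = 0.211). The arrays were picked for their values in these genes, so that the p-values of this setting are not independent evidence.

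**Figure D5:**
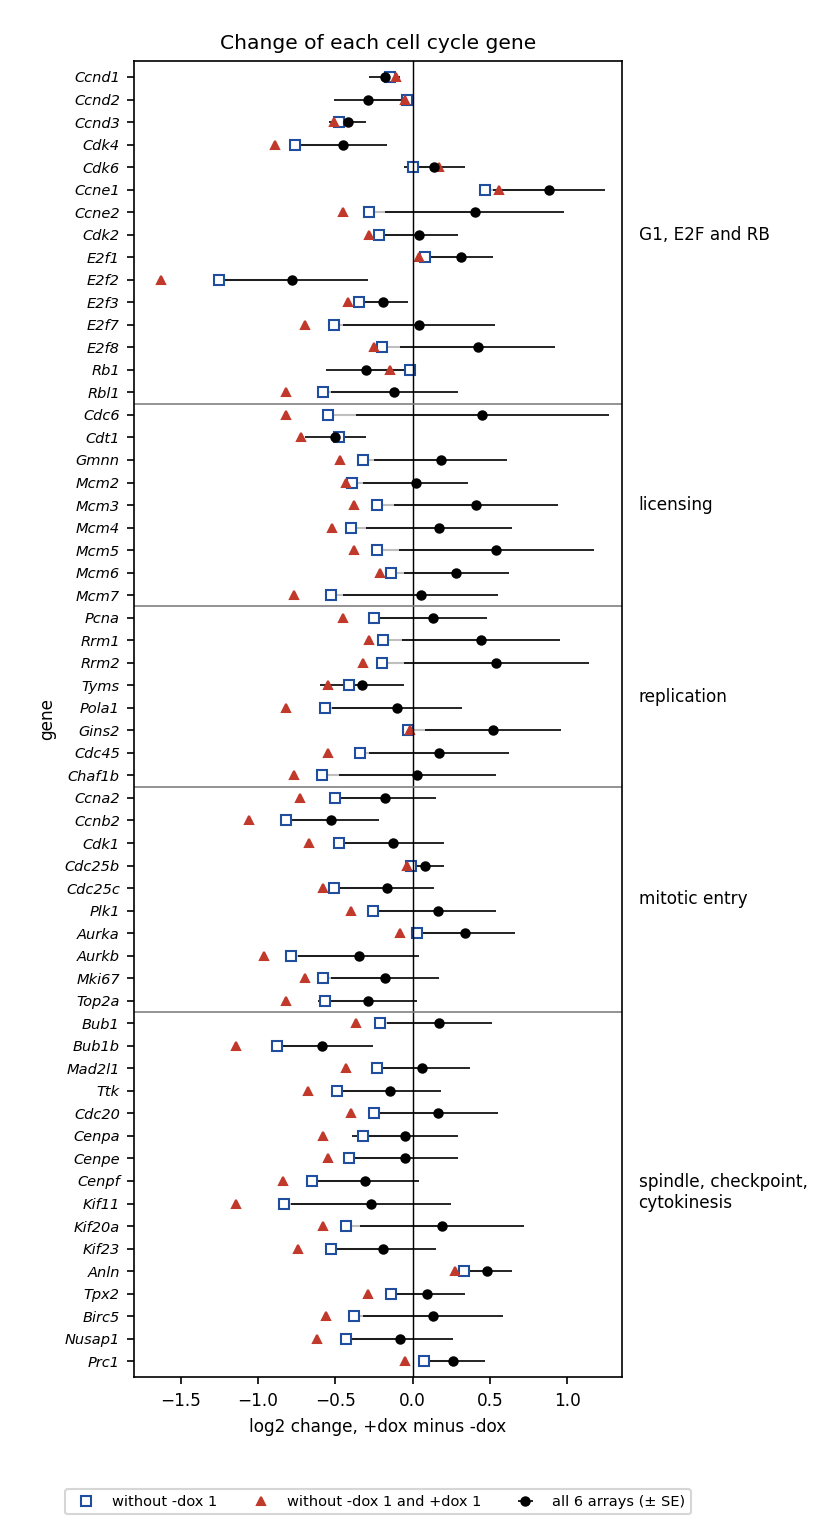
Change of each gene in log2 (+ dox minus − dox, horizontal axis), by phase: black circles with SE bars use all 6 arrays, open squares leave out − dox 1 and red triangles leave out both arrays numbered 1. Licensing and replication genes move from a median of 0.18 and 0.15 to -0.39 and -0.30 without − dox 1, while Ccne1 and Anln stay to the right of 0.

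Many other genes of these pathways were also low in − dox 1, where 38.9% of all genes were below both other − dox arrays and 2.14% were over 2-fold lower. Of 40 further replication fork and nucleotide genes, 39 were below both other − dox arrays in − dox 1 and 27 were over 2-fold lower (median difference -1.29). Of 75 further mitotic genes the figures were 71 and 36 (median -0.97), and of 15 further licensing and origin genes 12 and 6, with a median of -0.45 beside -1.71 in the licensing members. In the comparison of all 6 arrays 0 of these 130 genes passed the test by limma (4.88% of all genes). Orc2, of the origin recognition complex, changed by 0.38 and Cdc7, the kinase that fires origins, by -0.55 (adjusted p = 0.232 and 0.300). Pold2, of polymerase delta, changed by -0.50 and Umps, of pyrimidine synthesis, by 0.54 (adjusted p = 0.136 and 0.366), and the tubulin gene Tubb4b and the kinesin gene Kif18b by 0.81 and 0.78 (adjusted p = 0.178 and 0.205). Without both arrays numbered 1, 2 of the licensing, 25 of the replication and 26 of the mitotic genes were called lower (9.79% of all genes), and 1 mitotic gene higher (10.3%). These arrays were left out for their values in cell cycle genes, as above.

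Of 18 genes that regulate cell cycle transcription, 2 rose in + dox (3.07% of all genes) and 0 fell (1.8%) by limma. Mybl1, the A-Myb factor, read 7.79, 7.71 and 7.89 in + dox and 6.83, 6.88 and 7.08 in − dox (change 0.87 ± 0.11 SE, adjusted p = 0.0139). Lin37, a subunit of the DREAM complex that represses cell cycle genes in resting cells, read 8.43, 8.34 and 8.37 in + dox and 7.78, 7.73 and 7.90 in − dox (change 0.58 ± 0.09 SE, adjusted p = 0.0256). Mybl1 was lowest in − dox 1, though close to − dox 2 (6.83 and 6.88), and Lin37 in − dox 1 lay between the other − dox arrays. Mybl2 and Foxm1, activators of mitotic genes, were lower in − dox 1 by 1.66 and 1.45 on the log2 scale. The adjusted p of Mybl1 rose above 0.05 when + dox 2, + dox 3 or − dox 2 was left out, up to 0.0646. That of Lin37 rose above 0.05 when + dox 2 or 3 or − dox 2 or 3 was left out, up to 0.104. With a trended and robust eBayes of limma the adjusted p of Lin37 was 0.055.

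None of 8 inhibitors of cyclin-dependent kinases passed the test by limma with all 6 arrays, where 4.88% of all genes did. Cdkn1a (p21) changed by 0.86 and Cdkn2d by 0.81, with adjusted p of 0.137 and 0.0625, and Cdkn1b (p27) by -0.77 with an adjusted p of 0.104. Cdkn1b was highest in − dox 1, at 10.13 against 9.30 and 9.59 in the other − dox arrays, and Cdkn1a was lowest there, at 9.60 against 10.39 and 10.55. Cdkn2a, Cdkn2b, Cdkn2c, Cdkn1c and Cdkn3 changed by -0.27, -0.33, -0.39, 0.00 and 0.56. Without both arrays numbered 1, limma called 2 inhibitors higher (10.3% of all genes) and 2 lower (9.79%). The higher ones were Cdkn1a (0.72, adjusted p = 0.021 by limma) and Cdkn2d (0.89, adjusted p = 0.00469 by limma). Cdkn1b (-0.62, adjusted p = 0.0301 by limma) and Cdkn2c (-0.96, adjusted p = 0.00548 by limma) were the lower ones. Of 16 genes linked to quiescence or growth arrest, 0 passed with all 6 arrays (4.88% of all genes). Sesn1 (-0.70) and Gas1 (-1.64) had the smallest p (adjusted p = 0.0848 and 0.124 by limma). Without − dox 1, 3 of the 16 were called higher (3.94% of all genes) and 0 lower (2.33%). Without both arrays numbered 1, 5 were called higher (10.3%) and 3 lower (9.79%). These arrays were left out for their values in cell cycle genes, as above. In − dox 1, 10 of the 16 were above both other − dox arrays (39% of all genes) and 2 were below both (38.9%). The median difference was 0.58. Over 2-fold higher there were 3 (2.94% of all genes), among them Klf9 (1.45) and Btg2 (1.02). Over 2-fold lower were 2 (2.14% of all genes), down to -1.13.

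Lists of markers of other cell types had median differences near 0 in the low array. The differences between − dox 1 and the other − dox arrays lay between -0.15 (8 fibroblast genes) and 0.11 (6 endothelial genes), with -0.07 for 11 melanocyte and -0.05 for 8 muscle genes. Single genes did differ, such as Cd68, of the lysosome in macrophages, by 2.27, while Ptprc, which defines leukocytes, read between 2.78 and 3.08 in all arrays. Of the 11 melanocyte markers 2 were over 2-fold higher in − dox 1 (2.94% of all genes), by up to 1.38 on the log2 scale. Of the 8 muscle markers 1 was over 2-fold lower there (2.14% of all genes). Between the groups, the mean log2 level of the muscle list ran from 6.08 to 7.71 in + dox and from 8.37 to 8.86 in − dox, with Tnnc1 called lower (-1.84, adjusted p = 0.00936 by limma) and Tnnt3 at -2.79 (adjusted p = 0.0520). The highest + dox level was that of + dox 1, the array whose cell cycle genes were also highest in its group. The keratinocyte list ran from 5.36 to 5.81 and from 4.53 to 4.63, with Krtdap and Krt14 called higher (4.84 and 3.67, adjusted p = 0.0277 and 0.00173 by limma). The median change over its 9 measured genes was only 0.07, and the lowest was -0.15. For melanocyte genes the ranges were 4.81 to 4.97 and 5.09 to 5.29. Gpnmb was called lower (-2.62, adjusted p = 0.0185 by limma), and Mitf stood at -0.76 (adjusted p = 0.343 by limma). Without − dox 1 the change of Mitf was -0.30. The median change over the 11 melanocyte genes was 0.01, and the highest was 0.23. On leaving out 1 array, the adjusted p of Krtdap rose to between 0.0802 and 0.118 and that of Gpnmb to between 0.0646 and 0.0885 without + dox 2, + dox 3, − dox 2 or − dox 3, and that of Tnnc1 to 0.0526 without + dox 3 and 0.0537 without − dox 3. The remaining lists had 0 called genes, where 4.88% of all genes were called. Their named genes were Dcn at 0.85 and Col3a1 at -1.35, Cd74 at -0.50 and Itgam at 1.17, Tek at 1.61 and Cdh5 at 0.30, and Sox2 at -0.71. The part of these cell types in the cell cycle values was not tested.

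Across members with a promoter entry, the median difference of − dox 1 from the other − dox arrays was -1.53 in the 18 genes with E2F letters and -0.97 in the 28 without. For a CCAAT box with a CHR it was -1.04 in 22 genes and -1.19 in the 24 without. These medians describe genes that share arrays and phases and were not tested.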

How the data were processed

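Total RNA of 3 + dox and 3 − dox samples of 4434 cells was hybridised to Affymetrix mouse arrays, and samples were grouped by their labels. The deposited values are log2 expression values, which the authors made from scanner files in Chipster by RMA, which corrects background, equalises the arrays' quantiles and sums up the probes of each set. The Chipster version and chip definition file are not given in the sources used here, and the log2 scale was read from values between 2.08 and 14.44. Of 45101 probe sets, 34945 were annotated to 1 gene, 932 to several and 9160 to none, and 64 were array controls. Symbols came from the platform annotation of 2016 and were checked through Entrez identifiers (34741 matched, 0 changed). Of each gene's probe sets the one with the highest mean was used.

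Two-sided tests were made with the lmFit and eBayes functions of limma 3.58.1 (R 4.3.3), with no term other than the group, over all 18193 genes, with Benjamini-Hochberg adjustment and a threshold of 0.05. The script was tested on simulated data. Changes are + dox minus − dox. The − dox 1 array was compared with the mean of − dox 2 and 3 without a test. Promoters came from RefSeq (250 bases before to 50 after the start), and 12 members had no entry.

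The members, lists and alternatives were chosen with earlier results of these data known. The genes to be named were Ccne1, Cdt1 and Bub1b, any called member, the 4 members of each phase with the largest change, the 6 with the largest difference of − dox 1, all inhibitors of cyclin-dependent kinases and up to 4 genes of each other list. All other genes named were chosen after their values were seen. Alternatives tried were other choices of probe set, leaving out the dimmest 20% or 40% of genes, a trended and robust eBayes, a further quantile normalisation, centring on the array medians, a block for the replicate number, leaving out each array in turn or both arrays numbered 1, and an adjusted threshold of 0.01.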

Additional observations from a re-analysis of the deposited data

How the results depend on the processing

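The count of called members was 0 with another choice of probe set, with filters on dim genes, with trend and robust eBayes, with quantile normalisation, with median centring and at an adjusted p of 0.01, which left 128 genes called in all with the 6 arrays. Among named members the choice of probe set moved some estimates by over 1.5 times: the mean of a gene's probe sets gave 0.02 for Aurka, -0.05 for Ccnd3, 0.27 for Mcm3, 0.24 for Rrm1, -0.18 for Top2a and -0.11 for Tyms, and the probe set of largest variance gave -1.19 for E2f2. Leaving out each array in turn gave 0 to 1 called members, median changes from -0.36 to 0.21 and 119 to 1651 called genes in all. Without both arrays numbered 1 there were 23 called members, a median change of -0.51 and 3658 called genes. Of the genes named by the rule, the sign turned there for Mcm5 (-0.38), Cdc6 (-0.82), Mcm3 (-0.38), Rrm2 (-0.32), Gins2 (-0.02), Rrm1 (-0.28), Aurka (-0.08), Ccne2 (-0.45), Cdkn2b (0.04) and Cdkn3 (-0.16). With each array left out in turn, the ranges of these named genes that crossed 0 were -0.23 to 0.93 for Mcm5, -0.55 to 0.97 for Cdc6, -0.23 to 0.74 for Mcm3, -0.20 to 0.93 for Rrm2, -0.03 to 0.81 for Gins2, -0.19 to 0.76 for Rrm1, -0.28 to 0.85 for Ccne2, -0.03 to 0.88 for Cdkn3, -0.06 to 0.09 for Cdkn1c and -0.83 to 0.04 for Kif11. The lowest value was that without − dox 1 for each of these but Cdkn1c, and for Kif11 the value of 0.04 came without + dox 2 or without − dox 3. The cause of these turns was not tested beyond leaving out the arrays.

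Same-numbered arrays did not deviate together (correlations -0.118, -0.22 and 0.0818), and the numbers were therefore read as names only. With the replicate number as a block 303 genes and 0 members were called, and Lin37 and Krtdap had an adjusted p of 0.0844 and 0.0581.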

Other observations

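The genes with the largest differences of − dox 1 from the other − dox arrays were looked up after their values were seen. Of the 100 largest downward differences, 15 were members and 25 were among the 130 further licensing, replication and mitotic genes, and of the 100 largest upward ones 0 and 0 were. Dscc1, of the clamp loader for sister chromatid cohesion, was lowest of all, at 5.51 in − dox 1 against 9.37 and 9.41 in − dox 2 and 3 and between 8.25 and 9.13 in + dox. Tk1, thymidine kinase, read 7.48 against 10.57 and 10.53, and Exo1, an exonuclease of mismatch repair, 6.43 against 8.89 and 8.73. Tfrc, the transferrin receptor, read 8.26 against 10.73 and 10.74. Upward, Ppp1r15a, of the integrated stress response, read 11.23 in − dox 1 against 8.95 and 8.64, Egr2, an immediate early gene, 7.30 against 4.31 and 4.69, and Cox6a2, a muscle isoform of a cytochrome oxidase subunit, 10.36 against 7.22 and 7.48. These are values of 1 array and were not tested.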
